A study of Bos taurus with 17 samples.

Results

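The genes described here build the contacts and the apical surface of the compacting embryo. They comprise cadherins, catenins, nectins, tight junction proteins, the PAR and Crumbs polarity complexes, the ezrin family, basolateral polarity proteins, connexins and EPCAM. They were chosen by name from a list of 38 symbols, with claudins, desmosome genes and beta-catenin left out. Of these, 37 matched a row among the 17167 genes in the deposited table. PALS1 is absent as a symbol, but RefSeq gives MPP5 as a synonym of PALS1, so the row named MPP5 is that gene. Messenger RNA was sequenced from 17 pools of 10 in vitro produced bovine (Bos taurus) embryos at the morula stage. Recombinant WNT5A, a secreted WNT ligand, had been added to 8 pools, and 9 pools were controls. Dose, timing, any carrier given to the controls, and whether pools came from separate fertilisation rounds are not stated in the labels, so p-values measure the spread between these pools. The comparison asks how exogenous WNT5A altered transcripts of the morula.

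During compaction, blastomeres flatten against each other as E-cadherin contacts link through catenins to the actin cortex. At the same time an apical domain rich in ezrin, PAR proteins and atypical protein kinase C forms on the outer cells, while LLGL proteins and MARK kinases act on the basolateral side. In the mouse embryo, cells that inherit this apical domain become trophectoderm, and tight junctions later seal that epithelium around the blastocoel. WNT5A is best known for WNT branches that act on cell polarity and calcium rather than on beta-catenin.

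Values are RPKM, reads scaled to exon length and to a library size, so levels of different genes can be set side by side. RPKM times length in kilobases summed to 0.946 to 1.145 M per library. The library size used was therefore not simply the sum of the listed reads. Depth, worked back from the RPKM steps, was 34.0 to 200 M (mega) reads in WNT5A libraries and 125 to 162 M reads in control libraries. The shallow WNT5A libraries were 4, 12 and 14, with 34.0 to 52.4 M reads, against at least 140 M in the other 5. Control libraries 2, 3 and 6 stood apart with 10055 to 11268 genes that had any read, against at least 13587 in the other 6 controls. All 9 markers of the morula averaged at least 1 RPKM, with sums of 3255 to 6655 RPKM in WNT5A libraries and 3356 to 4775 RPKM in control libraries. Oocyte markers (7 of 8 in the table) summed to 3.43 to 18.7 RPKM in WNT5A libraries and 1.91 to 19.2 RPKM in control libraries. The 8 cumulus and granulosa markers in the table summed to 1.39 to 6.13 RPKM in WNT5A libraries. In control libraries they summed to 1.65 to 18.1 RPKM, with control library 2 the highest. FOXL2 alone made 17.7 RPKM of the sum in control library 2, and it was at 0 in 7 of 9 control libraries. The 3 blood markers in the table summed to 3.76 to 8.71 RPKM in WNT5A libraries and 3.60 to 19.9 RPKM in control libraries, where control library 2 was again the highest. Because pools are bulk samples, fewer cells making a transcript and less transcript per cell cannot be told apart.

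None of the junction and polarity genes passed the test between WNT5A and control pools, and most were transcribed at clear levels in both. In the 34 that reached 0.5 RPKM in 8 or more libraries, limma (two-sided, on log2(RPKM + 1), Benjamini-Hochberg over all 12415 genes tested) gave 0 with adjusted p under 0.05. The background was 0.00805%, 1 gene, and voom on the recovered reads also called 0 of 34. At unadjusted p under 0.05 the count was 1 of 34, NECTIN3, where 7.35% of all genes tested lay under that limit. The fitted log2 difference (WNT5A minus control) was above 0 for 27 of 34, against 62.3% of all genes. Its median over the 34 was 0.11, and 0.11 over all genes as well. With quantile normalization the medians were 0.11 for these genes and -0.01 for all genes, with 24 of 34 above 0, against 48.4% of all genes. Without the 6 libraries that stood apart, 21 of 34 were above 0, against 55.7% of all genes. No member had WNT5A and control ranges that did not overlap, a pattern seen in 0.0161% of all genes.

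The intervals bound each difference on the log2(RPKM + 1) scale, which compresses differences of genes at low RPKM. For 33 of 34 genes the 95% interval of the log2 difference included 0, and for 25 of 34 it lay wholly between -1 and 1. Only 3 of 34 intervals lay within -0.5 and 0.5. CDH2, PARD3B and GJA1 were below the filter and were not tested. The row for CDH1, the E-cadherin gene, is a case of a fairly tight interval, and TJP3 and LLGL2 are cases of wide ones.

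For members with libraries at or near 0 the size of the difference depended on the scale. With a pseudocount of 0.1 and with voom on recovered reads, the log2 difference of NECTIN3 was 1.43 and 1.94, that of DLG1 1.42 and 2.68, and that of PATJ 1.24 and 2.80. CDH3 gave 0.87 and 2.30 and CGNL1, listed at 0 in 6 of 17 libraries, gave 1.14 and 4.70, well outside its interval on the reported scale. In the same order of settings TJP3 gave 0.85 and 1.89, LLGL2 0.66 and 0.98, and CGN 0.58 and 1.11. MARVELD3, listed at 0 in 2 of 17 libraries, stayed below 0, with -0.54 and -0.34. The voom values of NECTIN3, DLG1, PATJ, CDH3 and TJP3 also lay above their intervals on the reported scale. These values rest on libraries without reads or nearly so and are not bounds, and none passed the threshold. Over all genes the median log2 difference was 0.22 with a pseudocount of 0.1 and 0.30 with voom. Over the 34 members tested it was 0.12 and 0.17.

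**Figure D1:**
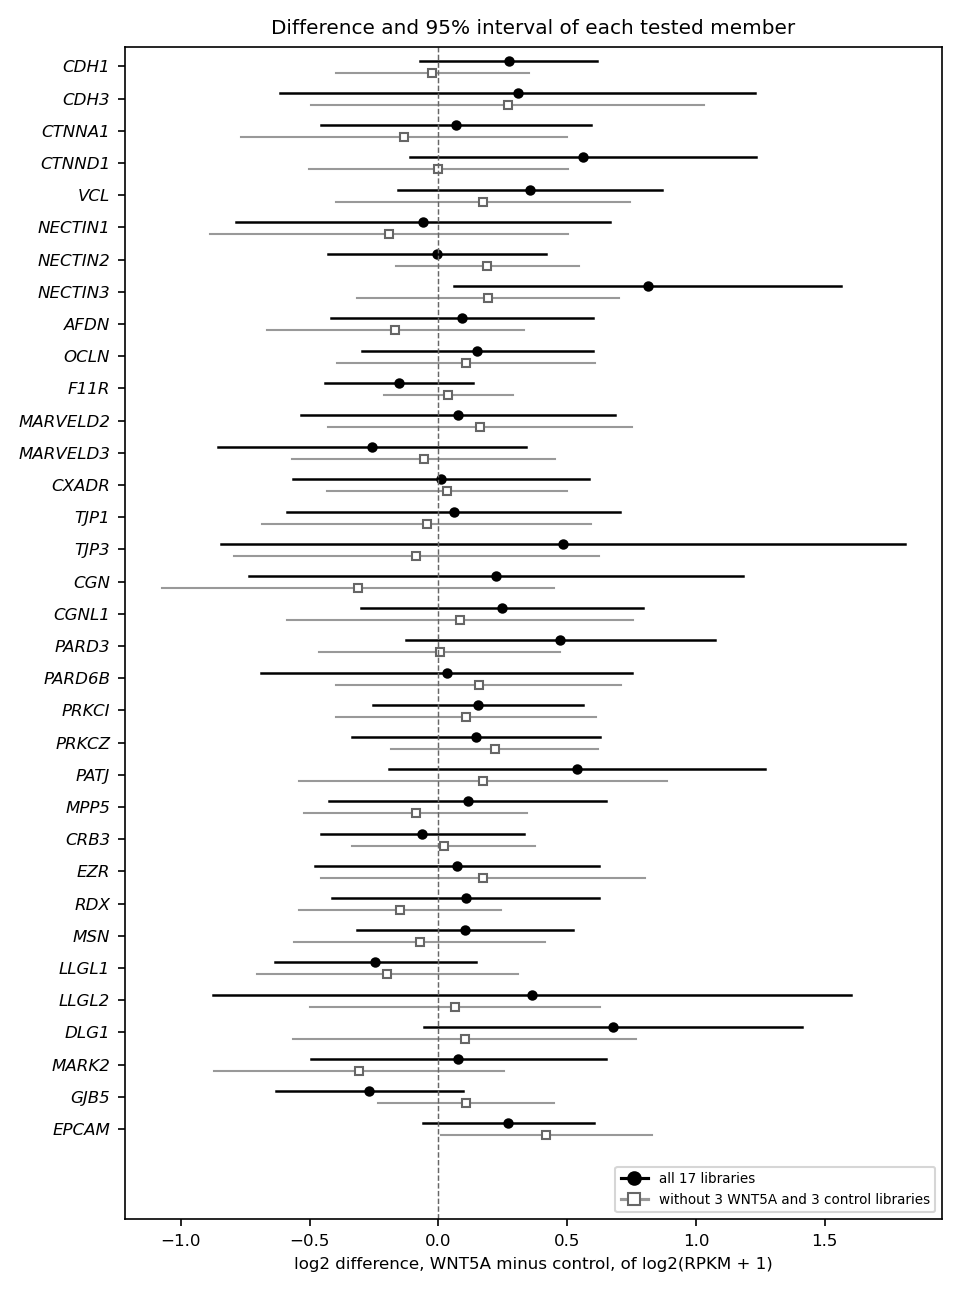
The log2 difference, WNT5A minus control, of log2(RPKM + 1) for the 34 genes tested, one per line by role, with 95% intervals from limma. Filled circles use all 17 libraries, and open squares leave out WNT5A libraries 4, 12 and 14 and control libraries 2, 3 and 6. With all libraries the interval of NECTIN3 alone lies above 0, and without those 6 its value is 0.19. Without those 6 the interval of EPCAM alone lies above 0 (0.0089 to 0.83).

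Among the cadherins, the calcium-dependent adhesion molecules of adherens junctions, CDH1 dominated in every library. CDH1 (E-cadherin), on which compaction depends, had a lowest, median and highest level of 137, 210 and 273 RPKM in WNT5A pools, against 124, 165 and 230 RPKM in control pools. The ranges overlapped widely, and the highest pools were WNT5A 4 and 12. Its mean was 203 ± 44.1 RPKM in WNT5A pools (SD, n = 8) and 168 ± 39.8 RPKM in control pools (SD, n = 9). The log2 difference was 0.27 (SE 0.17, 95% interval -0.07 to 0.62, limma adjusted p = 0.717). It was -0.02 without the 6 libraries that stood apart. CDH3 (P-cadherin) had 0.614, 2.81 and 7.15 RPKM in WNT5A pools, against 0, 2.88 and 6.55 RPKM in control pools. It was listed at 0 in control 3 and at 0.0113 RPKM in control 6, and its log2 difference was 0.31 (limma adjusted p = 0.855). CDH2 (N-cadherin) stayed between 0.0635 and 0.407 RPKM in WNT5A pools and was listed at 0 in 7 of 9 control pools, while control 9 had 2.37 RPKM.

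The catenins tie cadherins to actin. CTNNA1 (alpha-catenin), which binds actin through its tail, had 52.2, 91.2 and 118 RPKM in WNT5A pools, against 46.4, 76.0 and 174 RPKM in control pools. Control 9 was the highest pool and control 2 the lowest, so WNT5A pools lay inside the control range. CTNNA1 had a log2 difference of 0.07 (SE 0.25, 95% interval -0.46 to 0.59, limma adjusted p = 0.949). CTNND1 (p120-catenin), which holds cadherins at the membrane, had 13.5, 22.0 and 33.0 RPKM in WNT5A pools, against 2.67, 14.1 and 27.8 RPKM in control pools. WNT5A 4, 12 and 14 held 25.2 to 33.0 RPKM and the other 5 WNT5A pools 13.5 to 23.2 RPKM, while control 3 was far below every other pool. The log2 difference of 0.56 (SE 0.32, 95% interval -0.11 to 1.23, limma adjusted p = 0.707) was 0.31 without control 3 and 0.00 without the 6 libraries that stood apart. VCL (vinculin), recruited to alpha-catenin under tension, had 7.67, 15.2 and 19.2 RPKM in WNT5A pools, against 7.66, 9.43 and 16.9 RPKM in control pools. Among controls, pools 1, 4 and 9 held 16.1 RPKM or more and the other 6 at most 10.7 RPKM, and the groups overlapped. Its log2 difference was 0.36 (SE 0.25, limma adjusted p = 0.732).

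Nectins start cell contacts without calcium, and afadin joins them to actin. NECTIN2 was the main nectin, with 31.7, 60.7 and 103 RPKM in WNT5A pools, against 35.9, 61.9 and 76.8 RPKM in control pools. WNT5A 4, 12 and 14 held 31.7 to 46.3 RPKM and the other 5 WNT5A pools 58.0 to 103 RPKM, and 6 of 9 controls lay within one or the other of these ranges. The log2 difference was -0.01 (SE 0.20, 95% interval -0.43 to 0.42, limma adjusted p = 0.997), and 0.31 without WNT5A 4, 12 and 14. NECTIN3, which pairs across the contact with other nectins, had 0.812, 1.78 and 15.8 RPKM in WNT5A pools, against 0, 0.820 and 1.59 RPKM in control pools. A single pool, WNT5A 4, was far above all others, with 1254 reads on the gene, the other WNT5A pools reached 2.33 RPKM, and the groups overlapped. The log2 difference was 0.81 (SE 0.36, 95% interval 0.06 to 1.56, limma adjusted p = 0.676). It was 0.47 without WNT5A 4, 0.36 with quantile normalization and 0.19 without the 6 libraries that stood apart. NECTIN1 averaged 2.89 ± 1.62 RPKM in WNT5A pools (SD, n = 8) and 3.23 ± 2.12 RPKM in control pools (SD, n = 9), and its highest pools were control 3 and WNT5A 14. AFDN (afadin) averaged 20.8 ± 6.10 RPKM in WNT5A pools (SD, n = 8) and 20.1 ± 8.29 RPKM in control pools (SD, n = 9), with a log2 difference of 0.09.

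**Figure D2:**
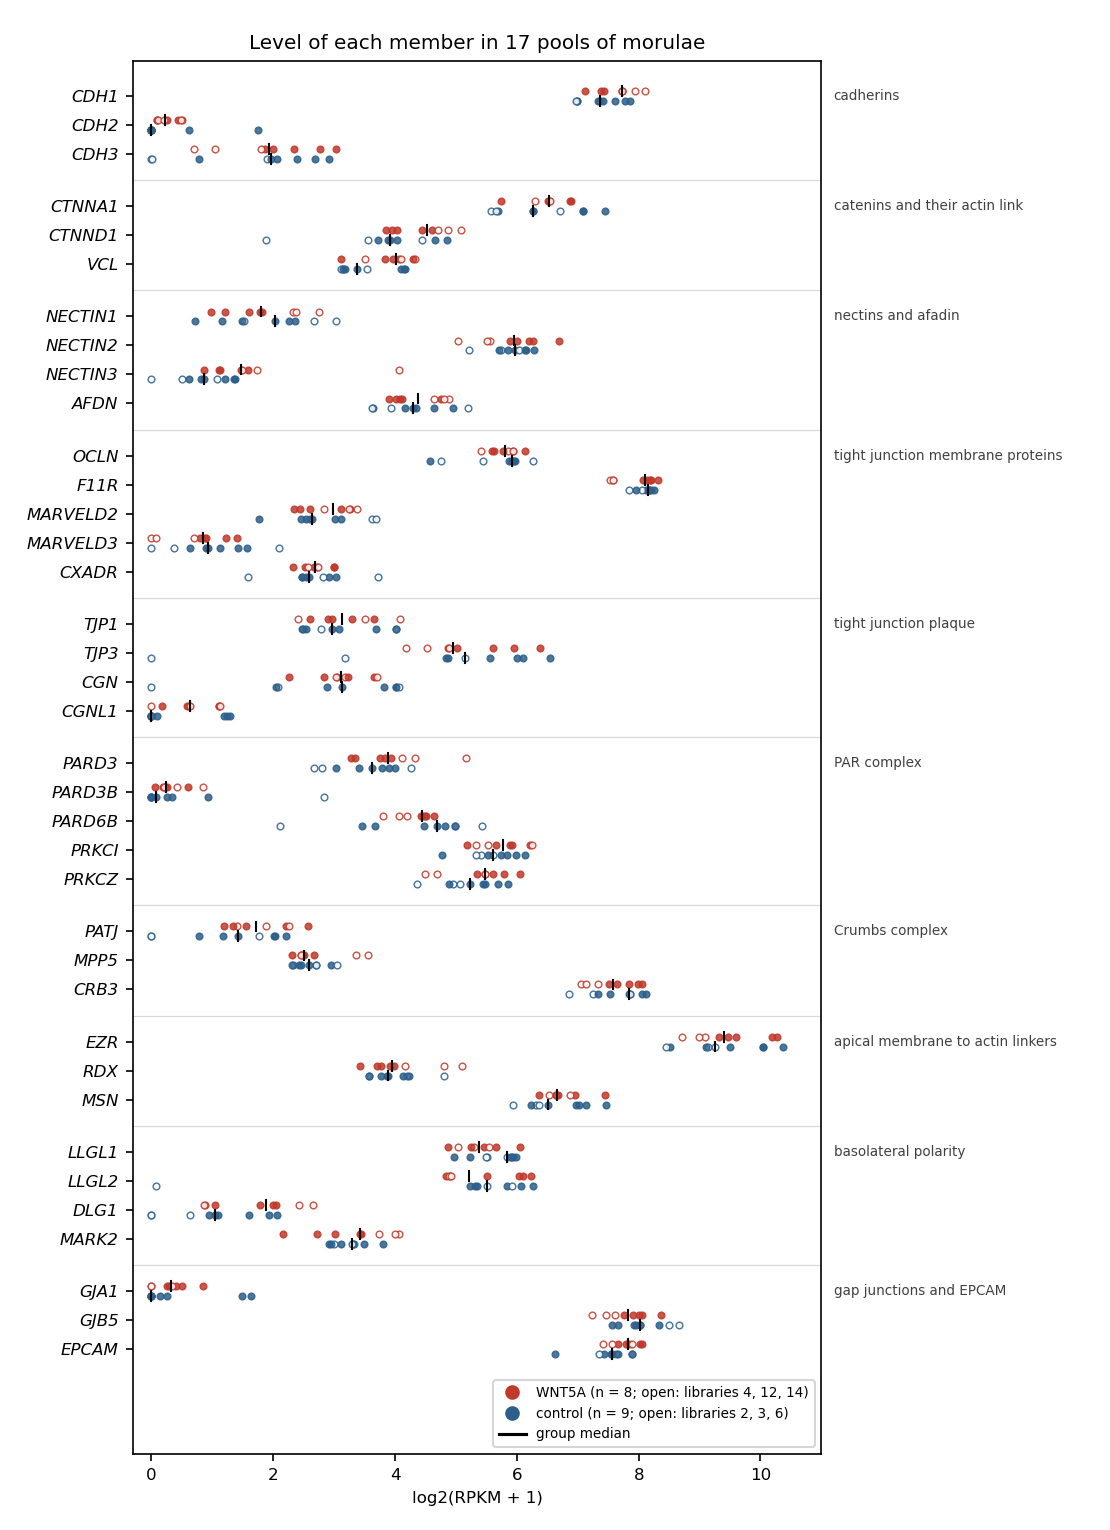
Level of each of the 37 genes in 17 pools as log2(RPKM + 1), grouped by role, with WNT5A pools (red) above control pools (blue) and a black tick at each group's median. Open circles are WNT5A libraries 4, 12 and 14 and control libraries 2, 3 and 6. Groups overlap for every gene, and single pools lie far out for NECTIN3 (WNT5A 4), PARD3B (control 6), LLGL2 and TJP3 (control 2).

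Of the tight junction membrane proteins, F11R (JAM-A, an immunoglobulin-type adhesion molecule that binds PAR3) was the most abundant, with a coefficient of variation of 21.6% in WNT5A pools and 8.71% in control pools. It had 184, 273 and 317 RPKM in WNT5A pools, against 227, 284 and 302 RPKM in control pools. WNT5A 4, 12 and 14 lay together at 184 to 191 RPKM, below every control, while the other 5 WNT5A pools held 268 to 317 RPKM. For F11R the log2 difference was -0.15 (SE 0.14, limma adjusted p = 0.776) and 0.04 without the 6 libraries that stood apart. OCLN (occludin, a tetraspan protein of the tight junction strand) had 41.8, 55.0 and 69.3 RPKM in WNT5A pools, against 22.9, 59.2 and 75.6 RPKM in control pools. Controls 5 and 6 were the 2 lowest pools, and the log2 difference was 0.15 (SE 0.22, limma adjusted p = 0.854). MARVELD2 (tricellulin), found where 3 cells meet, averaged 6.72 ± 2.06 RPKM in WNT5A pools (SD, n = 8) and 6.66 ± 3.18 RPKM in control pools (SD, n = 9). MARVELD3, the third protein of the occludin family, ranged from 0 to 1.64 RPKM in WNT5A pools and from 0 to 3.28 RPKM in control pools. CXADR, the coxsackievirus and adenovirus receptor, averaged 5.53 ± 1.05 RPKM in WNT5A pools (SD, n = 8) and 5.86 ± 2.78 RPKM in control pools (SD, n = 9). Its WNT5A pools lay inside the control range.

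In the tight junction plaque, the ZO scaffold expressed most was TJP3. TJP3 (ZO-3) had 17.1, 29.9 and 82.3 RPKM in WNT5A pools, against 0, 34.4 and 92.3 RPKM in control pools. Control 2 had no read on it, control 6 had 8.04 RPKM, and the remaining 7 controls held 27.5 to 92.3 RPKM. Its log2 difference of 0.48 had a wide 95% interval of -0.84 to 1.81 (SE 0.64, limma adjusted p = 0.839). It was -0.10 without control 2 alone and -0.09 without the 6 libraries that stood apart. TJP1 (ZO-1) averaged 8.65 ± 3.85 RPKM in WNT5A pools (SD, n = 8) and 8.48 ± 4.40 RPKM in control pools (SD, n = 9). CGN (cingulin), which links the plaque to myosin, ranged from 3.78 to 12.1 RPKM in WNT5A pools and from 0 to 15.7 RPKM in control pools. Control 3 was listed at 0, and the log2 difference of 0.22 (limma adjusted p = 0.904) was -0.14 without that pool. CGNL1 (paracingulin) ranged from 0 to 1.19 RPKM in WNT5A pools and from 0 to 1.45 RPKM in control pools, being listed at 0 in 1 of 8 and 5 of 9.

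The PAR complex sets up the apical domain through atypical protein kinase C. PRKCI, the iota form of that kinase, had 35.5, 53.9 and 74.8 RPKM in WNT5A pools, against 26.3, 47.8 and 68.9 RPKM in control pools. The ranges overlapped nearly throughout, with control 5 lowest, and the log2 difference was 0.15 (SE 0.20, 95% interval -0.26 to 0.56, limma adjusted p = 0.834). PRKCZ, the zeta form, had 21.6, 43.5 and 65.2 RPKM in WNT5A pools, against 19.6, 36.7 and 56.8 RPKM in control pools, with a log2 difference of 0.15 (limma adjusted p = 0.871). PARD3, the scaffold that recruits the complex to junctions, had 8.67, 13.7 and 34.9 RPKM in WNT5A pools, against 5.36, 11.3 and 18.1 RPKM in control pools. WNT5A 4, 12 and 14 were above the other 5 WNT5A pools, and WNT5A 4 was highest of all. The log2 difference of 0.47 (SE 0.29, 95% interval -0.13 to 1.07, limma adjusted p = 0.717) was 0.30 without WNT5A 4 and 0.0041 without the 6 libraries that stood apart. PARD6B, the adaptor that binds the kinase and CDC42, had 12.97, 20.7 and 23.9 RPKM in WNT5A pools, against 3.30, 24.7 and 42.2 RPKM in control pools. The WNT5A pools were the more even group, with a coefficient of variation of 18.9% against 54.4% in control pools, where control 2 was lowest and control 6 highest. PARD3B, a PAR3 relative that lacks the kinase-binding function in mammals, was at 0.0443 to 0.801 RPKM in WNT5A pools and at 0 to 6.16 RPKM in control pools. Outside control 6, controls reached 0.912 RPKM.

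In the Crumbs complex, CRB3, a small transmembrane protein of the apical surface, had 132, 191 and 264 RPKM in WNT5A pools, against 114, 228 and 276 RPKM in control pools. Its annotated exon length in the table is 375 bases, the shortest of the 37. RPKM is divided by that length, so a short length raises it. WNT5A 4, 12 and 14 held 132 to 159 RPKM and the other 5 WNT5A pools 183 to 264 RPKM. CRB3 had a log2 difference of -0.06 (SE 0.19, 95% interval -0.46 to 0.33, limma adjusted p = 0.937). MPP5, the PALS1 scaffold that joins CRB3 to PATJ, averaged 5.96 ± 2.57 RPKM in WNT5A pools (SD, n = 8) and 5.21 ± 1.18 RPKM in control pools (SD, n = 9). PATJ, the multi-PDZ partner of PALS1, had 1.30, 2.30 and 4.96 RPKM in WNT5A pools, against 0, 1.68 and 3.62 RPKM in control pools. Controls 2 and 6 were listed at 0, and no WNT5A pool was. PATJ had a log2 difference of 0.54 (SE 0.35, 95% interval -0.19 to 1.27, limma adjusted p = 0.726), and 0.17 without the 6 libraries that stood apart.

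The linkers between the apical membrane and actin included the most abundant member. EZR (ezrin), a classic marker of microvilli on the outer surface of the compacted mouse morula, had 417, 672 and 1228 RPKM in WNT5A pools, against 349, 612 and 1321 RPKM in control pools. Levels of 1049 RPKM or more occurred in WNT5A 1 and 11 and in controls 1, 4 and 9, and all other pools lay at 771 RPKM or less. Means were 746 ± 299 RPKM in WNT5A pools (SD, n = 8) and 731 ± 337 RPKM in control pools (SD, n = 9). For EZR the log2 difference was 0.07 (SE 0.27, 95% interval -0.48 to 0.62, limma adjusted p = 0.948). MSN (moesin) had 81.8, 100 and 173 RPKM in WNT5A pools, against 60.5, 90.5 and 176 RPKM in control pools, with a log2 difference of 0.10. RDX (radixin) had 9.78, 14.4 and 33.4 RPKM in WNT5A pools, against 10.8, 13.8 and 27.0 RPKM in control pools, with a log2 difference of 0.11. RDX ran opposite to EZR in WNT5A 4, 12 and 14, which held 16.8 to 33.4 RPKM of RDX and 417 to 542 RPKM of EZR. In the other 5 WNT5A pools the levels were 9.78 to 14.7 RPKM of RDX and 640 to 1228 RPKM of EZR.

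Among basolateral polarity genes, LLGL1, a substrate of atypical protein kinase C, had 28.1, 40.8 and 65.6 RPKM in WNT5A pools, against 30.4, 56.4 and 62.3 RPKM in control pools. The highest pool was WNT5A 11, although the WNT5A median lay below the control median. LLGL1 had a log2 difference of -0.24 (SE 0.19, 95% interval -0.64 to 0.15, limma adjusted p = 0.747). LLGL2, its paralog, had 27.5, 36.9 and 74.3 RPKM in WNT5A pools, against 0.0551, 44.6 and 76.0 RPKM in control pools. Control 2 was almost empty for LLGL2, whereas the other 8 controls held 36.5 to 76.0 RPKM. The log2 difference of 0.36 (SE 0.60, 95% interval -0.88 to 1.60, limma adjusted p = 0.875) was -0.26 without control 2. DLG1, a scaffold of the Scribble module, had 0.812, 2.70 and 5.29 RPKM in WNT5A pools, against 0, 1.07 and 3.15 RPKM in control pools. Controls 3 and 6 were listed at 0 and control 2 had 0.545 RPKM, below all other pools. The log2 difference was 0.68 (SE 0.35, 95% interval -0.06 to 1.41, limma adjusted p = 0.686), 0.26 without controls 2, 3 and 6, and 0.10 without the 6 libraries that stood apart. MARK2 (PAR1b), a basolateral kinase, averaged 9.83 ± 4.37 RPKM in WNT5A pools (SD, n = 8) and 8.62 ± 2.04 RPKM in control pools (SD, n = 9). WNT5A 4, 12 and 14 held 12.3 to 15.7 RPKM, above the 3.48 to 9.80 RPKM of the other 5 WNT5A pools.

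Connexins form the gap junctions that appear around compaction, and of the listed connexins GJB5 was abundant and GJA1 was not. GJB5 (connexin 31.1) had 150, 227 and 330 RPKM in WNT5A pools, against 188, 258 and 402 RPKM in control pools. The lowest pools were WNT5A 4 and 14 and the highest were controls 2 and 6. GJB5 had a log2 difference of -0.27 (SE 0.17, 95% interval -0.63 to 0.09, limma adjusted p = 0.725), and 0.11 without the 6 libraries that stood apart. GJA1 (connexin 43), a main gap junction protein of many tissues, ranged from 0 to 0.794 RPKM in WNT5A pools and from 0 to 2.10 RPKM in control pools, with controls 1 and 4 the only pools above 1 RPKM. EPCAM, an epithelial adhesion molecule, had 169, 225 and 264 RPKM in WNT5A pools, against 97.8, 188 and 235 RPKM in control pools. Control 5 was far below the other 16 pools. The log2 difference of EPCAM was 0.27 (SE 0.16, 95% interval -0.06 to 0.60, limma adjusted p = 0.713), and 0.16 without control 5. Without the 6 libraries that stood apart it was 0.42 (95% interval 0.0089 to 0.83, limma adjusted p = 0.9999).

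Ordered by mean level over 17 libraries, EZR (738 RPKM) led, followed by F11R (264), GJB5 (253), EPCAM (202), CRB3 (199.7), CDH1 (185) and MSN (108). EZR was above F11R in 17 of 17 libraries and CDH1 above MSN in 17 of 17. Between those steps the neighbours changed places: F11R exceeded GJB5 in 11 of 17 libraries, EPCAM exceeded CRB3 in 9 and CRB3 exceeded CDH1 in 10. The place of CRB3 depends on its annotated length of 375 bases, against 4457 bases for CDH1. Not divided by length, log2 CPM in the authors' deposited table is 6.23 for CRB3 and 9.68 for CDH1. NECTIN2, OCLN, PRKCI, LLGL1, LLGL2, TJP3 and PRKCZ formed a middle range from 60.8 to 40.0 RPKM in which each exceeded the next in 9 to 12 libraries. PRKCZ was above PARD6B, the next, in 15 of 17. At the low end DLG1, MARVELD3, PARD3B, CGNL1, GJA1 and CDH2 averaged below 2 RPKM. Summed over the 37 genes, WNT5A pools held 1932 to 3396 RPKM (mean 2559 ± 516, SD, n = 8) and control pools 1997 to 3454 RPKM (mean 2528 ± 506, SD, n = 9). EZR alone made 20.0% to 36.4% of that sum in WNT5A pools and 16.3% to 38.2% in control pools.

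Of the 33 other members tested, 8 had at least 4 of their 5 highest values in the 5 pools with most EZR, against 5.84% of all genes tested. CTNNA1 and TJP3 had their 5 highest values in the same 5 libraries, WNT5A 1 and 11 and controls 1, 4 and 9. CDH3, PRKCZ, PATJ, MSN, LLGL1 and LLGL2 had 4 of their 5 highest values there. NECTIN1, AFDN, PARD3, RDX and GJB5 had none of their 5 highest values in those pools. Over all 36 other members, 12 had 3 there, 5 had 2 and 6 had 1. These pools come from both groups, and all values of a pool share its library. The same 5 pools also had the 5 highest sums of the 9 morula markers, at 4594 RPKM or more. All other pools had 4470 RPKM or less, so these pools were not set apart by junction genes alone. What they share was not tested.

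**Figure D3:**
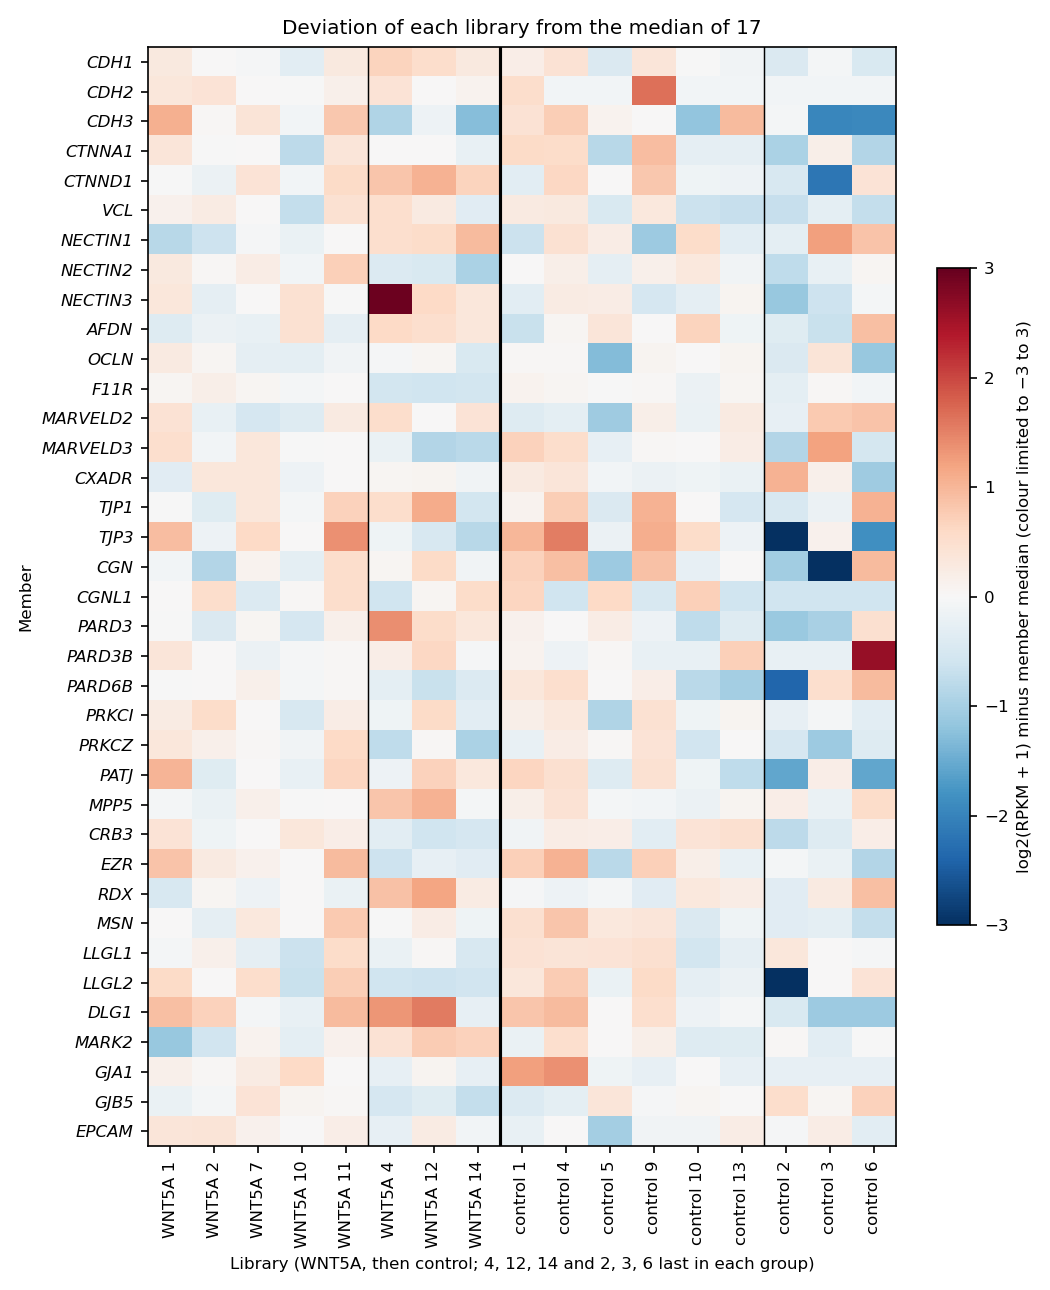
Deviation of log2(RPKM + 1) from each gene's median over 17 libraries, with genes in rows by role and libraries in columns (WNT5A left of control, and in each group the libraries that stood apart last). Red is above and blue below the median, limited to 3 either way. TJP3 and LLGL2 in control 2 and CGN in control 3 are the deepest blue cells, and NECTIN3 in WNT5A 4 the deepest red.

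Several related genes differed widely in level, and many of their orders held in every library. EZR exceeded MSN, and MSN exceeded RDX, in 8 of 8 WNT5A and 9 of 9 control libraries, with a median EZR to MSN ratio of 6.09 in WNT5A and 7.49 in control libraries. CDH1 exceeded CDH3 in all 17, with a median ratio of 54.6 in WNT5A and 46.2 in control libraries. NECTIN2 exceeded NECTIN1 in all 17, as PARD3 did PARD3B, OCLN did MARVELD2 and MARVELD2 did MARVELD3. Other orders depended on the library. NECTIN1 exceeded NECTIN3 in 6 of 8 WNT5A and 9 of 9 control libraries. TJP3 exceeded TJP1 in 8 of 8 WNT5A and 7 of 9 control libraries, the exceptions being controls 2 and 6. For the kinases the levels were close: PRKCI exceeded PRKCZ in 6 of 8 WNT5A and 8 of 9 control libraries, with median ratios of 1.34 in WNT5A and 1.24 in control libraries. LLGL1 and LLGL2 were nearly equal in mean level, LLGL1 being higher in 5 of 8 WNT5A and 4 of 9 control libraries. Their ratio ran from 0.576 to 1.59 in WNT5A libraries and from 0.736 in control libraries, with 1024 in control 2.

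**Figure D4:**
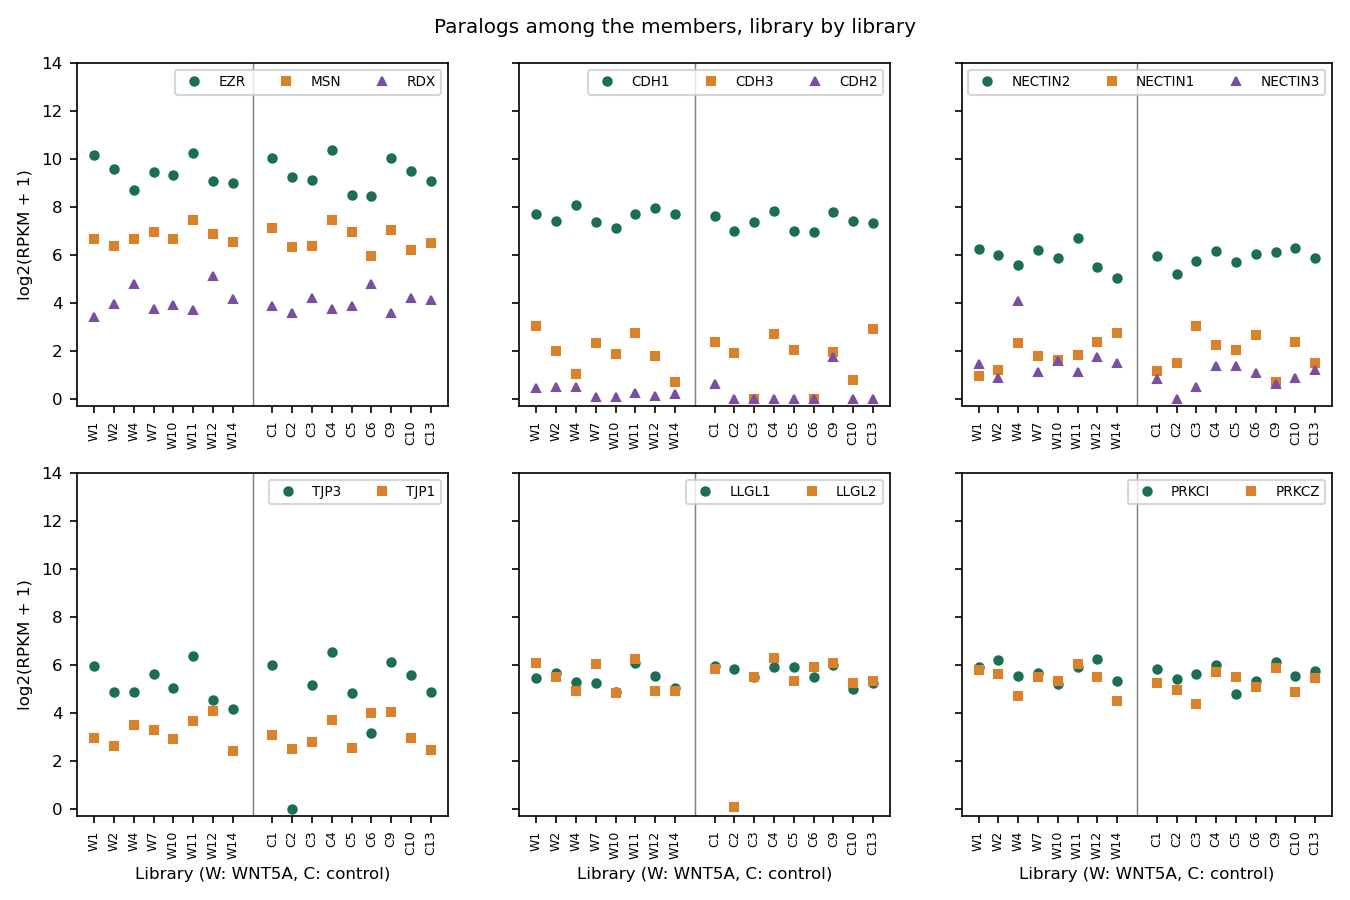
Levels of related genes as log2(RPKM + 1) in each library, with WNT5A libraries (W) left of control libraries (C). EZR lies above MSN and RDX, CDH1 above CDH3 and CDH2, and NECTIN2 above the other nectins in all 17 libraries. LLGL1 and LLGL2, and PRKCI and PRKCZ, change order between libraries. The widest gap within these pairs is in control 2, where LLGL2 is almost empty.

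Some members separated the libraries that stood apart from the rest of their group. In WNT5A 4, 12 and 14 all values were below those of the other 5 WNT5A libraries for 8 of 34 genes (CDH3, CRB3, EZR, F11R, GJB5, MARVELD3, NECTIN2 and PARD6B), against 13.9% of all genes tested. All were above for 5 of 34 (CTNND1, MARK2, NECTIN1, PARD3 and RDX), against 11.1% of all genes. These libraries were named for their depth after it was seen, and its part in these levels was not tested. In controls 2, 3 and 6 all values were below those of the other 6 controls for DLG1 alone, against 9.38% of all genes tested. Listing at 0 in controls 2, 3 and 6 touched 14.7%, 11.8% and 8.82% of the 34 genes, and 24.3%, 17.5% and 16.6% of all genes tested. Members with 0.5 RPKM or more numbered 33 to 35 of 37 in WNT5A libraries and 28 to 36 in control libraries, with 28 to 30 in controls 2, 3 and 6. Controls 2, 3 and 6 were named for their few genes with reads, so zeros and low counts there are partly set by that choice.

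The wider set of junction and polarity genes gave no call either. Of 89 further symbols named from general knowledge of these structures, 74 were in the table and 61 were tested. None had limma adjusted p under 0.05, and none with voom, while 5 of 61 had unadjusted p under 0.05 (7.35% of all genes) and 43 of 61 lay above 0 (62.3% of all genes). The median log2 difference was 0.25, against 0.11 over all genes. Without the 6 libraries that stood apart the median was 0.03, and without controls 2, 3 and 6 it was -0.01. The smallest p-values were those of ZYX, ACTN4 and ACTN1. ZYX (zyxin), a protein of actin fibres under tension, averaged 75.5 ± 53.0 RPKM in WNT5A pools (SD, n = 8) and 30.7 ± 14.6 RPKM in control pools (SD, n = 9). Its log2 difference was 1.09 (SE 0.37, limma adjusted p = 0.673), and -0.01 without the 6 libraries. The actin crosslinkers ACTN4 and ACTN1 had log2 differences of 1.01 and 0.60 (SE 0.37 and 0.22, limma adjusted p = 0.673 for both), and 0.25 and 0.10 without the 6 libraries. The most abundant of these genes was SLC9A3R1, an ezrin-binding scaffold, with 571 ± 179 RPKM (SD, n = 8) in WNT5A pools and 565 ± 115 RPKM in control pools (SD, n = 9). RAC1, a GTPase of the actin cortex, came next, with a log2 difference of -0.16.

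The authors' deposited table gives its own fold change and FDR for each gene. No member of 37 had an FDR under 0.05 in the authors' deposited table (0 of 37), against 1.01% of all 17167 genes, and 0 of 37 had a p-value under 0.05. The smallest FDR among members in the authors' deposited table were 0.813 for LLGL1 and 0.816 for CTNND1. The sign of the authors' deposited table differed from limma's for 5 of 34 genes: CXADR, LLGL2, TJP3, CGN and PARD6B. For TJP3 and LLGL2 the authors' deposited table has mean RPKM values of 39.7 and 45.6 in WNT5A, against 40.8 and 46.4 in control. On the log2 scale limma gave 0.48 and 0.36 for TJP3 and LLGL2, and -0.10 and -0.26 without control 2. For CDH2 the log2 fold change in the authors' deposited table is 1.07, although its mean RPKM there is 0.215 in WNT5A and 0.322 in control.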

How the data were processed

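A stranded TruSeq mRNA kit was used on RNA extracted with an RNeasy micro kit, per the labels' protocols. The submitters' processing notes name FastQC, HISAT2, featureCounts, edgeR and the assembly ARS-UCD1.2. Versions, annotation release and strand setting are not stated in these sources, so reads of overlapping antisense genes may not be separated. The authors deposited RPKM per library and exon lengths in a single table. Per the file headers it also gives, per gene, the authors' FDR and p-value, a likelihood ratio score, log2 fold change, log2 CPM and mean RPKM per group. RPKM times length fell on whole reads for 100% of values (tolerance 0.001). A floor of 3 reads on 1 kilobase was 0.0155 to 0.0841 RPKM, highest in WNT5A 4, and covers counting error only. No molecular identifiers are described, so reads need not be independent molecules.

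From these values limma 3.58.1 (R 4.3.3; lmFit, then eBayes, robust and with a trend) was fitted on log2(RPKM + 1) over all 12415 genes that reached 0.5 RPKM in 8 or more libraries. Differences on this scale understate changes of low genes. Recovered reads were used only for voom, as an alternative. Plots used matplotlib 3.10.9 in Python 3.11.15. All members are named. Lowest, median and highest values are given for the most abundant of each role, the 10 with the smallest p, and further members where a comparison needed them. Of the other junction genes, the 3 with the smallest p and the 3 most abundant were to be named, and 1 of these is not reported here. Members, lists and tests were chosen with earlier results of these data known. Replicate numbers 1, 2, 4 and 10 occur in both groups. The labels do not say what a shared number means, so the numbers were not taken to pair libraries. Deviations of same-numbered libraries correlated at 0.216, 0.0571, 0.0217 and 0.109. With so few shared numbers, these values cannot decide whether a number marks a shared round. Chromosome positions were not used here.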

Additional observations from a re-analysis of the deposited data

Results flagged for a closer look

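A pool was set aside here for a closer look when its gap to the nearest pool of its group exceeded Dixon's 95% limit. For normal and independent values chance gives about 1 in 20 groups, or 3.9 of the 78 looked at, and 6 were found. These RPKM include zeros and the groups share libraries, so 3.9 is only a rough guide. All 6 lay on the high side. NECTIN3 in WNT5A 4 had 15.8 RPKM (next 2.33), and PARD3 in the same library had 34.9 RPKM (next 19.1). WNT5A 4 was also the shallowest library, at 34.0 M (mega) reads, and its part in these values was not tested. MSN in WNT5A 11 had 173 RPKM (next 123). PARD3B in control 6 had 6.16 RPKM (next 0.912) from 2705 reads, and RDX in control 6 had 27.0 RPKM (next 17.7). CDH2 in control 9 had 2.37 RPKM (next 0.530) from 1599 reads.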

How the results depend on the processing

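No alternative brought a member or one of the other junction genes past the threshold. Over all genes, 1 passed in the analysis as reported and with a pseudocount of 0.1. The count was 0 with no filter on low values, quantile normalization, voom, without WNT5A 4, 12 and 14, without controls 2, 3 and 6, without all 6, and with the replicate block. Leaving out single libraries gave 0 to 2, with 2 without control 5. Of 850 member values under alternatives, 746 kept their sign and 104 reversed, and 10 of 34 genes never reversed; the causes were not tested. The difference in summed RPKM was 30.1 as reported. It was 304.7 without WNT5A 4, 12 and 14, -152.23 without controls 2, 3 and 6, and 122.4 without all 6. The replicate block gave -171.17, and leaving out single libraries gave -89.49 to 145.77.

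Log2 differences that reversed are given by setting. Quantile normalization gave CGNL1 -0.14, CDH3 -0.034, CRB3 0.069, TJP1 -0.026, PARD6B -0.041, CXADR -0.14 and NECTIN2 0.050. Voom gave MPP5 -0.093, RDX -0.090, CRB3 0.081, MARK2 -0.21, MARVELD2 -0.069, TJP1 -0.015 and NECTIN2 0.11. Without WNT5A 4, 12 and 14 they were F11R 0.079, MARVELD3 0.035, MPP5 -0.13, RDX -0.24, AFDN -0.14, CRB3 0.18, MARK2 -0.29, MARVELD2 -0.075, TJP1 -0.034 and NECTIN2 0.31. Without controls 2, 3 and 6 they were TJP3 -0.47, CDH3 -0.19, PRKCZ -0.067, LLGL2 -0.25, MSN -0.12, CGN -0.20, EZR -0.14, CTNNA1 -0.15, NECTIN1 0.18 and PARD6B -0.026. Without all 6 they were CDH1 -0.024, GJB5 0.11, F11R 0.038, TJP3 -0.087, MSN -0.072, CGN -0.31, MPP5 -0.089, RDX -0.15, AFDN -0.17, CRB3 0.020, MARK2 -0.31, CTNNA1 -0.13, TJP1 -0.045 and NECTIN2 0.19. Leaving out single libraries gave ranges across 0 for TJP3 (-0.10 to 0.72), LLGL2 (-0.26 to 0.51), CGN (-0.14 to 0.37), MPP5 (-0.0052 to 0.17), RDX (-0.037 to 0.21), CRB3 (-0.16 to 0.011), MARK2 (-0.029 to 0.24), EZR (-0.043 to 0.20), CTNNA1 (-0.038 to 0.20), MARVELD2 (-0.058 to 0.18), TJP1 (-0.070 to 0.17), NECTIN1 (-0.21 to 0.079), PARD6B (-0.24 to 0.17), CXADR (-0.13 to 0.14) and NECTIN2 (-0.12 to 0.12).

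The replicate block, fitted on the 8 libraries with shared numbers, gave CGNL1 -0.052, MSN -0.20, CGN -0.37, MPP5 -0.019, CRB3 0.15, MARK2 -0.38, EZR -0.34, CTNNA1 -0.089, TJP1 -0.068, CXADR -0.41 and NECTIN2 0.026. At unadjusted p under 0.05 it held 320 genes, against 221 for the same libraries without the replicate block, an alternative added after the data were seen. The numbers share no stated origin, and not every library correlated best with its own number (best matches 1, 1, 9 and 5).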
